A study of Arabidopsis thaliana with 48 samples.

Results

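The response of agb1 guard cells to the plant hormone abscisic acid (ABA) was measured on 6 of the 48 arrays of a study of Arabidopsis thaliana. The 6 arrays were chosen by their labels (genotype agb1, guard cell sample), and 3 of them carried RNA from ABA samples and 3 RNA from samples held in the solvent ethanol (EtOH). All 22746 probe sets other than the 64 controls of the array design were tested. The whole study crossed 2 sample types, isolated guard cells and leaves, with 4 genotypes and both treatments, with 3 arrays in each of the 16 groups.

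The mutant agb1 carries the allele agb1-2 in the gene of the G protein beta subunit. The other guard cell groups used here were gpa1, with the allele gpa1-4 in the gene of the alpha subunit, the double mutant agb1 gpa1, which carries both alleles, and the Columbia wild type (WT). Leaves of agb1 with ABA and with EtOH served for the comparison of sample types. In every group the plants were 5 weeks old and had grown in 8 h of light and 16 h of dark, at 20 °C by day and 18 °C by night. ABA was given at 50 µM for 3 h, and the EtOH samples were held as long without it. Each guard cell sample pooled 300 leaves of 60 to 70 plants, and each leaf sample 10 leaves of 3 to 4 neighbouring plants. The labels call the 3 replicates independent and biological. They differ on whether leaves or isolated guard cells were held in ABA. They also differ on the control: samples described as EtOH carry a source entry of no treatment, so whether the control was solvent or untreated is not settled, and EtOH here follows the description. Each gene was represented by 1 mutant allele, so effects of the allele and of the plant line it was kept in cannot be told apart.

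Abscisic acid accumulates in plants short of water, closes the stomatal pores through the pair of guard cells around each pore, and switches on genes that protect cells from drying. Heterotrimeric G proteins have an alpha, a beta and a gamma subunit, and in Arabidopsis AGB1 is the beta subunit and GPA1 the canonical alpha subunit. Mutants of either gene are known for guard cells whose ion channels respond less to ABA than those of the wild type.

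Deposited values were log2 expression values, between 2.42 and 14.50, with array medians between 5.06 and 5.39. Arrays of agb1 guard cells correlated at 0.9748 to 0.9877 with ABA and at 0.9863 to 0.9901 with EtOH (Pearson's r across probe sets, which are not independent). AGB1 and GPA1 had no probe set named in the annotation, so the mutated genes were not examined here. The guard cell label was checked against markers. FMA (FAMA), the regulator of the last step of guard cell differentiation, read 8.40 to 8.89 with ABA and 10.92 to 11.09 with EtOH in agb1 guard cells, against 4.72 to 5.11 with ABA and 4.94 to 5.86 with EtOH in agb1 leaves. CHX20, a cation/H+ exchanger of guard cells, read 9.59 to 11.70 in guard cells and 5.69 to 7.87 in leaves. Among the other measured identity and lineage genes, AT1G22690 averaged 13.53 with ABA and 13.91 with EtOH in guard cells. In leaves it averaged 9.62 and 10.51. MUTE, SPCH and STOMAGEN lay near the low end of the scale in both sample types, with group means of 3.31 to 4.10, and gave no clear check. SWEET11, a sucrose exporter of vascular tissue, read 4.18 to 6.16 in guard cells and 9.43 to 11.32 in leaves. Mesophyll genes were still present in the guard cell samples, as given below with the photosynthesis genes. In samples of this kind a lower share of cells of one type and less RNA per cell of that type cannot be told apart.

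In agb1 guard cells 3571 of 22746 probe sets (15.7%) responded to ABA at an adjusted p under 0.05 (limma, Benjamini-Hochberg). Of these, 1651 were higher with ABA (7.26%) and 1920 lower (8.44%), while the median of all probe sets was -0.01. Lower calls were more numerous but smaller. The median called fold was 2.24 among the higher and 1.84 among the lower. Changes of at least 2-fold were 988 higher and 767 lower (7.72% of all probe sets), and changes over 4 on the log2 scale were 60 higher and 11 lower. Those that rose had a median of 8.32 with ABA and 6.76 with EtOH. Those that fell had a median of 6.62 with ABA and 7.72 with EtOH. With the replicate number as a block, 5358 probe sets were called (23.6%), 2294 higher and 3064 lower, and 3547 of them were also called without it. The 3 ABA arrays lay entirely above or below the 3 EtOH arrays for 6839 probe sets (30.1%).

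Genes are named below from probe sets tied to exactly 1 gene, by symbol, or by locus code where the tables used give no symbol. Such a locus code is printed without a role. Among the 13350 genes so named, 6.41% rose and 6.97% fell. Counts of list members below can be read against these shares, and no list was tested as a set.

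The largest responses were inductions from near the bottom of the scale. The 12 genes with the largest rise were picked among called genes whose ABA and EtOH arrays did not overlap. They read 3.44 to 6.79 with EtOH and 7.98 to 12.55 with ABA, and their responses ran from 5.18 to 7.32. AT3G02480 read 12.41, 10.73 and 12.55 with ABA and 4.45, 4.36 and 4.93 with EtOH, in the order of the replicates. The response of 7.32 (SE 0.409, adjusted p = 1.25e-10) was the largest of the named genes. AT5G45690 followed at 6.88 (adjusted p = 3.38e-09) and AT3G17520 at 6.80 (adjusted p = 3.7e-08). Among the symbols in the group were LEA18 and AtLEA4-1, late embryogenesis abundant (LEA) proteins, which build up in drying seeds and stressed cells. LEA18 read 10.68, 8.81 and 10.25 with ABA and 4.68, 4.05 and 4.13 with EtOH, a 49.3-fold rise (log2 5.62, SE 0.497, adjusted p = 7.61e-08). AtLEA4-1 read 8.92, 8.30 and 9.93 with ABA and 3.73, 3.63 and 3.48 with EtOH (5.44, adjusted p = 3.31e-08). The remaining members were AT2G47780 (6.10), AT1G69480 (5.83), AT3G15670 (5.49), AT5G05220 (5.39), ZW9 (5.29), AT1G23070 (5.25) and AT1G49450 (5.18). ABA replicate 2 was the lowest of the 3 ABA arrays in 11 of these 12 genes. All 12 were called under every alternative tried, the filter on dim probe sets included, and also in WT, gpa1 and agb1 gpa1 guard cells and in agb1 leaves.

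The 12 genes with the largest fall, picked under the same condition of no overlap, read 3.60 to 9.43 with ABA and 7.93 to 13.23 with EtOH. AT4G21870, a member of the heat shock list, read 4.12, 4.99 and 4.63 with ABA and 10.03, 10.18 and 8.90 with EtOH. That was the largest fall among named genes (-5.12, SE 0.392, adjusted p = 9.7e-09). AT1G11340 read 4.84, 5.68 and 4.83 with ABA and 9.58, 9.31 and 9.68 with EtOH (-4.40, SE 0.349, adjusted p = 1.63e-08). The others fell between -4.81 (AT5G44680) and -3.30 (AT5G25840), among them AT2G25780 (-4.75), AT5G62360 (-4.52) and AT5G02540 (-4.10). In 9 of the 12 ABA replicate 2 was the highest of the 3 ABA arrays. These 12 genes were likewise called under every alternative tried and in the other guard cell genotypes and agb1 leaves.

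**Figure D1:**
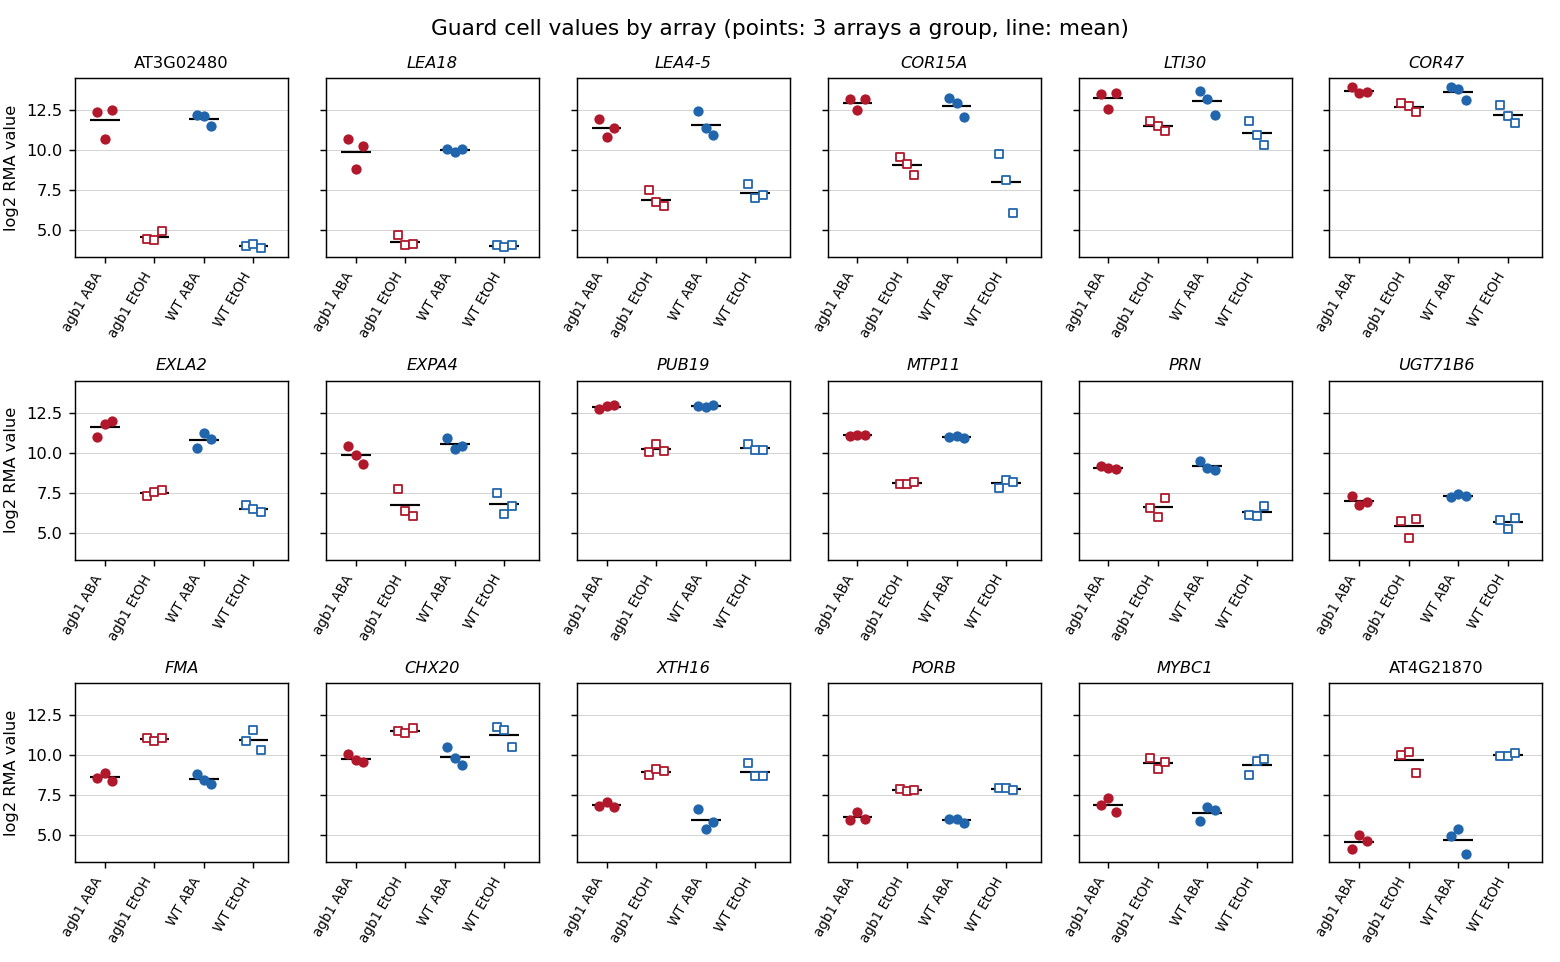
Log2 expression of 18 genes on single arrays, 1 panel per gene. Points are arrays and horizontal lines group means (n = 3), with agb1 guard cells under ABA and EtOH on the left and WT guard cells under ABA and EtOH on the right. In agb1 AT3G02480 read 10.73 to 12.55 with ABA and 4.36 to 4.93 with EtOH, and AT4G21870 read 4.12 to 4.99 with ABA and 8.90 to 10.18 with EtOH.

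ABA-induced genes rose in agb1 guard cells. Of 34 genes on the list of known ABA-induced genes 7 had a named probe set, and 7 of the 7 rose, with a median response of 2.47 against -0.01 over all probe sets. LEA4-5, another LEA protein, read 11.98, 10.85 and 11.42 with ABA and 7.51, 6.74 and 6.50 with EtOH (4.50, SE 0.351, adjusted p = 1.26e-08). COR15A, a cold-regulated protein of the chloroplast, read 13.22, 12.53 and 13.20 with ABA and 9.60, 9.13 and 8.46 with EtOH (3.92, SE 0.643, adjusted p = 0.000173). For both genes each ABA array exceeded each EtOH array by more than the spread within either treatment. The dehydrins LTI30 and COR47, which bind membranes and water, started high. LTI30 read 13.54, 12.59 and 13.60 with ABA and 11.83, 11.55 and 11.18 with EtOH, and rose by 1.72 (adjusted p = 0.00613). COR47 read 13.96, 13.59 and 13.68 with ABA and 12.99, 12.77 and 12.41 with EtOH, and rose by 1.02 (adjusted p = 0.00667). The lowest ABA array of each dehydrin still lay above its highest EtOH array.

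Calls of a further pair of ABA-induced genes were weak. COR15B, a relative of COR15A, read 9.85, 10.87 and 10.34 with ABA and 8.00, 8.69 and 6.97 with EtOH (2.47, adjusted p = 0.0425, and 0.00182 with the replicate block). It lost its call without ABA replicate 1, 2 or 3 (adjusted p = 0.0584, 0.127 and 0.0961) and without EtOH replicate 1 or 3 (0.087 and 0.183). HIS1-3, a linker histone, read 11.40, 10.06 and 11.30 with ABA and 9.49, 9.23 and 8.75 with EtOH (1.76, adjusted p = 0.0402). It kept its call when ABA replicate 2 was the array left out and lost it without any of the other 5 arrays (adjusted p of 0.0598 to 0.145). The list of LEA and dehydrin proteins, matched by gene symbol or synonym, had 7 measured members. Of these 4 rose (LEA18, AtLEA4-1, LEA4-5 and AT2G44060, at 1.58) and 0 fell, with a median of 1.58. The match left out the dehydrins LTI30 (1.72) and COR47 (1.02), which also rose.

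The core of ABA signalling itself was not measured by name: 0 of 26 listed receptors, phosphatases, kinases and ABF factors had a named probe set. Of genes that make, break down or conjugate ABA, 2 were measured, both glucosyltransferases that inactivate ABA by adding glucose. UGT71B6 read 7.27, 6.73 and 6.91 with ABA and 5.75, 4.66 and 5.88 with EtOH, and rose (1.54, SE 0.269, adjusted p = 0.000336). UGT71C5 differed by -0.35 and was not called (adjusted p = 0.13). PRN, a pirin known to bind GPA1, was the 1 measured partner of the G protein. It read 9.16, 9.02 and 9.01 with ABA and 6.57, 5.99 and 7.20 with EtOH, with tight ABA arrays well above the EtOH arrays, and rose by 2.48 (SE 0.262, adjusted p = 8.41e-07).

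Of 24 listed genes of guard cell identity and lineage 5 had a named probe set. Of 18 listed genes of guard cell ion and hormone transport 1 had, CHX20. The measured genes fell or were not called. FMA read 8.56, 8.89 and 8.40 with ABA and 11.09, 10.92 and 11.05 with EtOH (-2.4, SE 0.27, adjusted p = 1.87e-06). CHX20 read 10.08, 9.70 and 9.59 with ABA and 11.49, 11.38 and 11.70 with EtOH (-1.73, SE 0.274, adjusted p = 0.000115). Neither gene showed any overlap between the treatments. FMA was the 1 of 5 measured identity and lineage genes that was called, and 2 were called with the replicate block, on the 6 arrays alone or with a trended and robust spread. SPCH, which starts the stomatal lineage, differed by -0.49 (adjusted p = 0.0633), and MUTE, which ends its divisions, by 0.21. STOMAGEN, a peptide made by mesophyll that promotes stomata, differed by 0.06, and AT1G22690 by -0.38 (adjusted p = 0.279, and 0.0394 with the replicate block).

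Among genes of the cell wall, expansins, which loosen the wall without cutting its polymers, rose in 4 of 19 measured cases and fell in 0, with a list median of 0.12. EXLA2 read 11.00, 11.82 and 11.96 with ABA and 7.31, 7.53 and 7.64 with EtOH (4.10, SE 0.294, adjusted p = 4.06e-09). EXPA4 read 10.41, 9.89 and 9.32 with ABA and 7.71, 6.33 and 6.07 with EtOH (3.17, SE 0.562, adjusted p = 0.0004). The ABA arrays of both genes stood clear of the EtOH arrays. EXLA1 rose by 1.40 and EXPA16, already near 13 with EtOH, by 0.99 (adjusted p = 0.000277). Of 10 xyloglucan hydrolases, enzymes that cut and rejoin the polymer tethering cellulose, 1 fell and 0 rose. It was XTH16, at 6.80, 7.05 and 6.79 with ABA and 8.75, 9.13 and 9.04 with EtOH (-2.09, SE 0.388, adjusted p = 0.000609). XTH19 stood at 1.22 without a call (adjusted p = 0.131), and was called with the replicate block (adjusted p = 0.00943). With that block 1 xyloglucan hydrolase rose and 2 fell. CSLC5, a synthase of the xyloglucan backbone, fell by 1.99. Tetraspanins, proteins that organise membrane domains, rose in 2 of 15 cases, led by TET2 at 7.56, 8.02 and 7.87 with ABA and 5.66, 5.45 and 5.24 with EtOH (2.37, adjusted p = 4.69e-09). The other, TET3, rose by 0.78 and lost its call without ABA replicate 1 or 3 or EtOH replicate 2 or 3 (adjusted p of 0.0737 to 0.275).

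Ubiquitin ligases moved both ways. Of 9 measured U-box ligases, which attach ubiquitin to their targets, 2 rose and 3 fell. PUB19, known to dampen ABA-induced closure, read 12.71, 12.91 and 12.99 with ABA and 10.08, 10.52 and 10.10 with EtOH (2.63, SE 0.209, adjusted p = 1.58e-08). PUB43 rose by 1.12 (adjusted p = 6.4e-05). The 3 that fell were PUB22 (-0.72), PUB23 (-1.07, adjusted p = 0.000187) and PUB25 (-1.28, adjusted p = 0.0212). PUB25 was not called without ABA replicate 3 (adjusted p = 0.0968) or EtOH replicate 1 (adjusted p = 0.113). UBC32, a ubiquitin-conjugating enzyme of protein degradation at the endoplasmic reticulum, read 11.35, 11.26 and 11.85 with ABA and 9.19, 9.10 and 9.44 with EtOH and rose by 2.24 (adjusted p = 3.4e-06). It was the 1 of 12 conjugating enzymes called. Of 12 ubiquitin-specific proteases, which remove ubiquitin, 0 were called by limma, and 1 had an unadjusted p under 0.05.

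Of 22 bZIP transcription factors 0 rose and 3 fell: BZIP61 (-2.11, adjusted p = 0.000545), bZIP52 (-1.37) and AT4G38900 (-1.32). Of 7 WRKY factors 0 rose and 2 fell, WRKY47 (-1.5, adjusted p = 4.42e-08) and WRKY22 (-1.14, adjusted p = 0.000111). WRKY47 read 4.53, 4.70 and 4.53 with ABA and 5.98, 6.14 and 6.15 with EtOH. Of 7 bHLH factors 0 were called, with 1 at an unadjusted p under 0.05, and 2 fell with the replicate block. Of 40 AGAMOUS-like factors 1 rose and 1 fell, and each of these counts was 0 without ABA replicate 1 or EtOH replicate 3. MYBC1, a MYB-type factor outside these families, was picked out after its values were seen and read 6.89, 7.35 and 6.44 with ABA and 9.81, 9.15 and 9.57 with EtOH (-2.62, SE 0.36, adjusted p = 2.39e-05).

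Among all named genes 6.41% rose and 6.97% fell. Of 43 UDP-glycosyltransferases, which attach sugars to hormones and secondary compounds, 5 rose and 4 fell, with a median of 0.13. The number that rose was 3 without ABA replicate 3 or without EtOH replicate 3. UGT78D2, an enzyme of flavonoid and anthocyanin glucosides, rose by 1.27 (adjusted p = 1.72e-06), UGT87A2 rose by 1.12, and UGT85A2 fell by 1.39. Of 13 glutathione S-transferases 3 rose and 1 fell, but without ABA replicate 3 only GSTU18 was called. GSTU18 rose by 1.31 (adjusted p = 6.15e-07), while GSTU26 (1.02), GSTU15 (0.45) and GSTU27 (-1.85) then had an adjusted p of 0.0524, 0.0735 and 0.0658. GSTU27, the 1 that fell, lost its call without any of 5 of the 6 arrays. Nuclear genes of mitochondrial respiration rose in 5 of 18 cases and fell in 1. The 5 became 3 without ABA replicate 1, ABA replicate 3 or EtOH replicate 1, and on all 48 arrays 2 rose and 0 fell. ETFBETA, a subunit of the electron transfer flavoprotein, rose by 1.41 (adjusted p = 7.6e-06), SDH2-1, the iron-sulphur subunit of succinate dehydrogenase, by 0.99 (adjusted p = 0.000145), and SDH1-1, its flavoprotein subunit, by 0.94. SDH1-1 was not called without ABA replicate 1 (adjusted p = 0.054), CYTC-2 (0.68) without ABA replicate 3 or EtOH replicate 1 (0.0776 and 0.0827), and NDB2 (0.61) without any of 5 of the 6 arrays (0.0535 to 0.172). Of 21 beta-glucosidases 0 rose and 2 fell, BGLU16 (-1.41, adjusted p = 4.72e-06) and BGLU42 (-1.36). Peroxidases (9 measured), NRT1/PTR transporters (11), glutamate receptor-like channels (8), PRA1 proteins (9) and calmodulin and calmodulin-like proteins (9) had 0 calls by limma without the replicate block, with 3, 1, 0, 3 and 3 members at an unadjusted p under 0.05. With the block 3, 2, 1, 3 and 3 of them were called.

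Further single genes with a known role were picked out after their values were seen, among the largest called responses of genes with a symbol. MTP11, a manganese transporter, had close replicates, at 11.05, 11.12 and 11.09 with ABA and 8.04, 8.04 and 8.18 with EtOH (3.00, SE 0.161, adjusted p = 7.18e-11). CRT1b, a calreticulin that folds glycoproteins in the endoplasmic reticulum, read 10.61, 10.70 and 10.97 with ABA and 8.48, 8.14 and 8.31 with EtOH (2.45, adjusted p = 3.88e-06). AUR2, an Aurora kinase, rose by 2.97, BETA-VPE, a vacuolar protease, by 2.80, CHIL, a chalcone isomerase-like protein, by 2.68, and EULS3, a lectin, by 2.53. Among those that fell, ALN, allantoinase of purine breakdown, read 7.84, 7.77 and 7.71 with ABA and 9.78, 9.59 and 9.54 with EtOH (-1.86, SE 0.133, adjusted p = 3.77e-09). SWC2, a subunit of a chromatin remodelling complex, fell by 2.12, SGT1A, a co-chaperone, by 1.95, FAC1, AMP deaminase, by 1.91, and PPDK, pyruvate phosphate dikinase, by 1.70.

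Of 12 measured members of the 2 lists of nuclear genes of photosynthesis and chlorophyll synthesis 5 fell and 0 rose. These lists were matched by gene name. They hold GAPC2, a cytosolic enzyme (-0.25, not called), and lack PSAN of the mesophyll list (-1.01, not called). PORB, which reduces protochlorophyllide on the way to chlorophyll, read 5.94, 6.43 and 6.03 with ABA and 7.91, 7.76 and 7.83 with EtOH (-1.70, SE 0.175, adjusted p = 6.05e-07). CHLM, another enzyme of chlorophyll synthesis, fell by 1.01 (adjusted p = 0.00313). These were the 2 of 7 members called on the list of the Calvin cycle and chlorophyll synthesis. LHCB4.2, a light-harvesting protein, read 9.55, 10.58 and 9.96 with ABA and 11.24, 11.36 and 11.45 with EtOH (-1.32, adjusted p = 0.000161). Of 5 genes on the photosystem and light-harvesting list 3 fell and 0 rose, and 1 fell on the 6 arrays alone. LHCB4.3 stood at 0.74 without a call (adjusted p = 0.203) and was called with the replicate block (0.0229). The other calls, PSBY (-0.70) and LHCB4.1 (-0.57), depended on single arrays. PSBY was not called without ABA replicate 1 or 3 (adjusted p = 0.0807 and 0.069) or EtOH replicate 2 or 3 (0.0525 and 0.0625). LHCB4.1 was not called without ABA replicate 1 (0.134) or EtOH replicate 2 or 3 (0.0672 and 0.0905).

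Of the 5 measured mesophyll markers 1 fell, LHCB4.2, which is also counted above, and 4 were not called. On the 6 arrays alone 2 fell. The list median was -0.81, and the mean level of the 5 was 8.67, 9.61 and 8.96 on the ABA arrays and 9.67, 9.93 and 9.78 on the EtOH arrays of agb1 guard cells. In WT guard cells it was 9.20, 8.28 and 7.84 with ABA and 10.02, 9.50 and 8.97 with EtOH, and in agb1 leaves it lay at 10.69 to 11.24 with ABA and 11.65 to 11.95 with EtOH. The part of mesophyll RNA in these falls of photosynthesis genes was not tested. Genes of the organelle genomes had no call: 0 of 69 chloroplast-encoded genes passed, with 0 at an unadjusted p under 0.05 and a median of -0.16, and 0 of 11 mitochondrion-encoded genes, with 1 at an unadjusted p under 0.05 and a median of 0.22 (1 was called with the replicate block and 1 without ABA replicate 2).

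**Figure D2:**
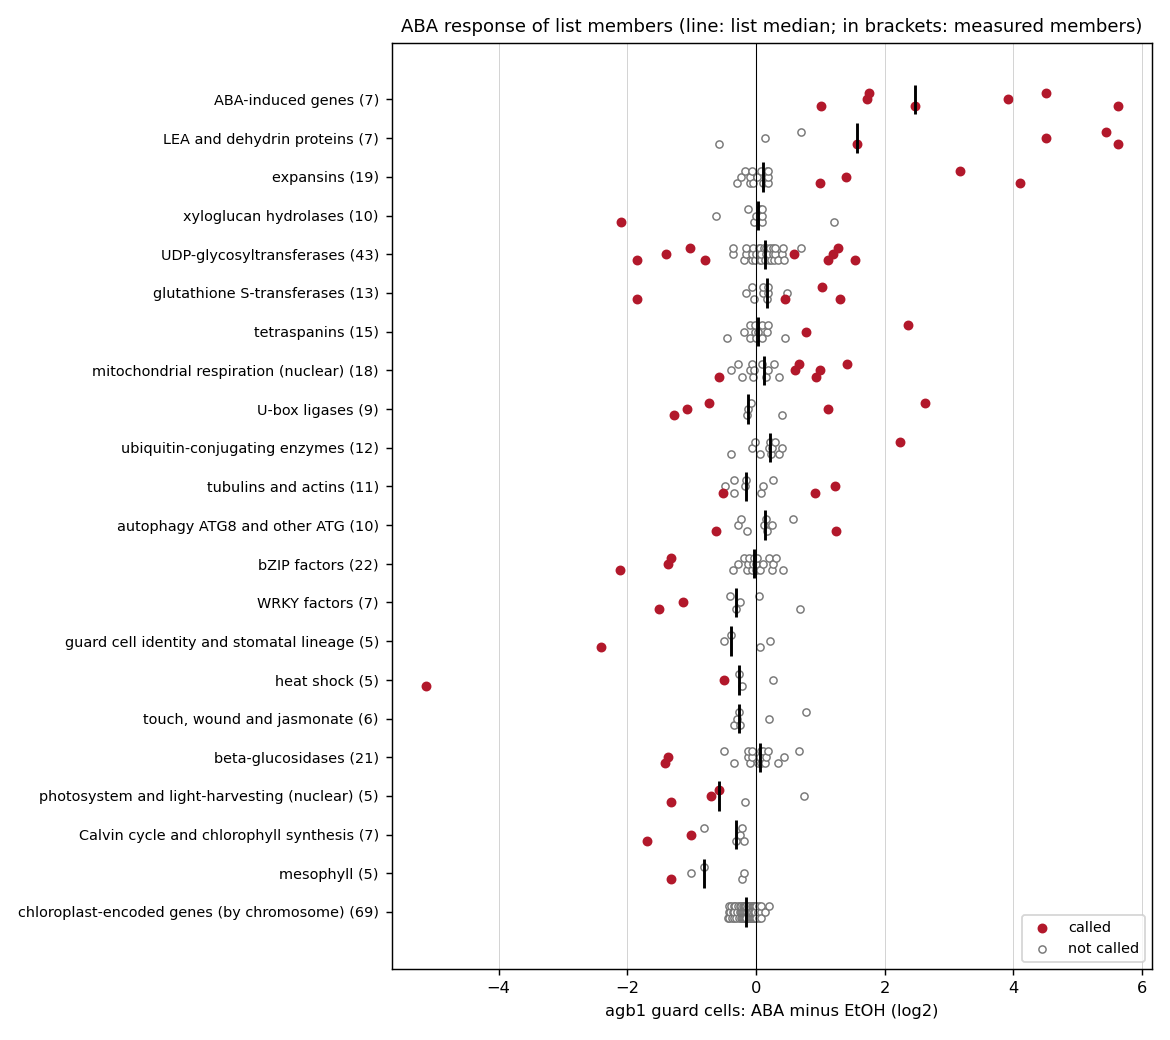
Responses of the measured members of 22 gene lists to ABA in agb1 guard cells (log2 difference, ABA minus EtOH). Filled points are called members, open points are not called, and vertical lines are list medians. The 7 measured ABA-induced genes lie at 1.02 to 5.62, while the 69 chloroplast-encoded genes lie between -0.43 and 0.20 with 0 called.

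The question the design puts to the mutant is whether loss of the beta subunit alters this response. Guard cells of gpa1 had 4564 calls (20.1%), those of agb1 gpa1 3695 (16.2%) and those of WT 4585 (20.2%). Each genotype had its own ABA and EtOH arrays. Of the agb1 calls, 3110 were also called in WT in the same direction, which is 87.1% of the agb1 calls and 67.8% of the WT calls, and 1 was called in the opposite direction. With gpa1 the shared calls were 3169 (88.7% of agb1 calls, 69.4% of gpa1 calls), and with the double mutant 2844 (79.6% and 77%). In all 4 genotypes 2557 probe sets were called in the same direction, 71.6% of the agb1 calls. Across the 3571 probe sets called in agb1, responses in agb1 and WT correlated at r = 0.987, as a description over probe sets of the same arrays.

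The difference of the responses was tested itself, and 0 probe sets (0%) passed in agb1 minus WT, in agb1 minus gpa1 or in agb1 minus agb1 gpa1 with limma. The counts at an unadjusted p under 0.05 were 308 (1.35%), 277 (1.22%) and 310 (1.36%), and with the replicate block 571 (2.51%), 562 (2.47%) and 524 (2.3%), again with 0 called. A share of 0.05 would be expected with no difference at all, so these tests were conservative, more so without the block. A missed threshold does not show that responses were equal. The median SE of agb1 minus WT was 0.254 without the block and 0.207 with it. Intervals are given here without the block, which leaves the variation shared within a replicate number in the error. The 95% interval of a difference reached a median of 0.63 on the log2 scale to either side among the agb1 calls. For 2566 of the 3571 (71.9%) the interval of agb1 minus WT lay wholly within 1 on the log2 scale, for 2556 (71.6%) that of agb1 minus gpa1, and for 2584 (72.4%) that of agb1 minus agb1 gpa1. The remaining calls could differ by more than 2-fold at this precision.

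The size of the response was also compared on probe sets chosen in gpa1, whose arrays took no part in the other genotypes' values. The 1136 probe sets that rose at least 2-fold in gpa1 had a median response of 1.5 in agb1, 1.41 in agb1 gpa1 and 1.51 in WT. All 1136 had the same sign in agb1. The 954 that fell at least 2-fold in gpa1 had medians of -1.23 in agb1, -1.22 in agb1 gpa1 and -1.37 in WT, and all 954 kept their sign in agb1. By replicate number, the medians of the higher set were 1.56, 1.37 and 1.63 in agb1 and 1.49, 1.69 and 1.48 in WT. Those of the lower set were -1.29, -1.15 and -1.34 in agb1 and -1.22, -1.53 and -1.44 in WT. The ranges of the 2 genotypes overlapped in both sets.

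Named genes were also compared singly. For the 12 most induced genes agb1 minus WT ran from -0.65 to 0.77, and for the 12 most reduced from -0.43 to 0.48, and each of the 24 intervals spanned 0. These 24 genes were picked by their response in agb1, which can enlarge the agb1 side, so their values are a description. AT3G02480, at 7.32 in agb1, read 12.22, 12.17 and 11.54 with ABA and 4.02, 4.13 and 3.88 with EtOH in WT (7.97), and its difference had an interval of -1.86 to 0.56. PUB19 responded by 2.63 in agb1 and 2.64 in WT (interval of the difference -0.62 to 0.61), and MTP11 by 3.00 in agb1 and 2.89 in WT (-0.37 to 0.58). FMA stood at -2.4 in agb1 and -2.44 in WT (-0.76 to 0.83). Intervals were wider for genes with more scatter. XTH16 stood at -2.09 in agb1 and -3.04 in WT (-0.20 to 2.09), and COR15A rose by 3.92 in agb1 and by 4.77 in WT (-2.75 to 1.05).

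**Figure D3:**
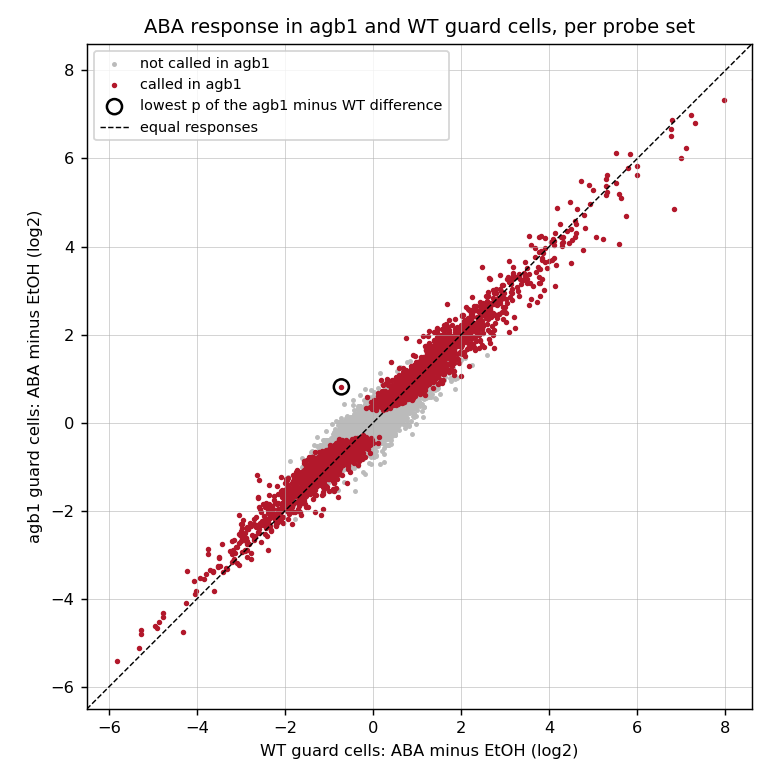
ABA response (log2, ABA minus EtOH) of each of 22746 probe sets in agb1 guard cells (vertical axis) against WT guard cells (horizontal axis). Red points are the 3571 probe sets called in agb1, the dashed line marks equal responses, and the circle marks probe set 253204_at, at 0.81 in agb1 and -0.72 in WT.

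Genes called in a single genotype of the pair did not differ by test. The 10 with the largest response among those called in agb1 but not in WT moved by 1.25 to 2.09 in size in agb1 and by 0.41 to 1.54 in WT, in the same direction in 10 of 10. They include AT5G08350 (-2.09 in agb1, -1.18 in WT). The 10 called in WT but not in agb1 moved by 0.81 to 1.85 in agb1 and by 1.55 to 2.03 in WT, again in the same direction in 10 of 10, among them MT1C, a metallothionein (1.0 in agb1, 1.85 in WT). Their adjusted p in agb1 was 0.062 to 0.143, and 6 of the 10 were called in agb1 with the replicate block. All 20 intervals of the difference spanned 0, and they reached from -2.4 to 2.54. Over all probe sets, 460 were called in agb1 and not in WT, of which 451 (98%) had the same sign in WT. More, 1474, were called in WT and not in agb1, of which 1414 (95.9%) had the same sign in agb1. In agb1 and in none of the other 3 guard cell genotypes 140 were called (3.92% of the agb1 calls).

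Probe set 253204_at, which the annotation ties to no gene, had the lowest p for a difference between agb1 and WT. It read 9.11, 9.01 and 8.86 with ABA and 8.48, 8.39 and 7.67 with EtOH in agb1, a rise of 0.81 (adjusted p = 0.00185). In WT it read 10.11, 10.38 and 10.47 with ABA and 11.05, 11.02 and 11.06 with EtOH, a fall (-0.72, adjusted p = 0.00412). The groups of agb1 lay below those of WT under both treatments and moved in opposite directions. The difference was 1.53 (SE 0.239, 95% interval 1.03 to 2.03), with an unadjusted limma p of 3.40e-06 and an adjusted p of 0.0774. It was called after centring each array on its median (adjusted p = 0.0436) and without EtOH replicate 1 of agb1 (0.0291), and over all settings its adjusted p ran from 0.0291 to 1. In gpa1 the same probe set differed by -0.60, at 10.40, 10.19 and 9.97 with ABA and 10.91, 10.56 and 10.89 with EtOH. In agb1 gpa1 it differed by -0.15, at 6.43, 6.30 and 6.24 with ABA and 6.50, 6.39 and 6.54 with EtOH.

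By the naming rule, the 5 genes with the lowest p for agb1 minus WT are given as uncalled, each at an adjusted p of 1. AT4G15975 read 4.16, 4.24 and 4.2 with ABA and 5.43, 5.16 and 5.96 with EtOH in agb1 (-1.31), against 4.64, 4.08 and 4.39 with ABA and 6.95, 6.40 and 7.55 with EtOH in WT (-2.60). Its ABA values overlapped between the genotypes and its EtOH values were lower in agb1, and the difference was 1.28 (interval 0.57 to 2.00). The others were CYP71B35, a cytochrome P450 (0.72, interval 0.31 to 1.13), AT5G14550 (0.98, 0.42 to 1.53), POL (0.64, 0.25 to 1.03) and AT3G50300 (-0.60, -0.98 to -0.23).

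The guard cell response was set against that of agb1 leaves, which had 3303 calls (14.5%). The responses of guard cells and leaves differed for 1434 probe sets (6.3%), of which 728 were higher in guard cells (3.2%) and 706 lower (3.1%), and for 2329 (10.2%) with the replicate block. Calls in the same direction in both sample types numbered 1196, which is 33.5% of the guard cell calls and 36.2% of the leaf calls, and 60 were called in opposite directions. Of the 2315 called in guard cells and not in leaves, 568 had a called difference. The 2 responses correlated at r = 0.531 over all probe sets and at r = 0.682 over the guard cell calls, as a description.

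Several of the strongest inductions in guard cells were small in leaves. AT3G15670 rose by 5.49 in guard cells and 0.46 in leaves, a difference of 5.03. AT5G45690 rose by 6.88 in guard cells and 1.78 in leaves, where it read 4.60, 5.44 and 5.79 with ABA and 3.30, 3.66 and 3.52 with EtOH (difference 5.09, SE 0.609, adjusted p = 3.73e-07). AT1G23070 differed by 4.56 and AT3G17520 by 4.82. The LEA proteins parted: AtLEA4-1 rose more in guard cells (5.44) than in leaves (2.07, adjusted p of the difference 0.000224) and so did LEA18 (5.62 against 3.10, 0.00938), while LEA4-5 rose by 4.50 in guard cells and 4.32 in leaves (interval of the difference -0.74 to 1.09). AT3G02480 rose by 7.32 in guard cells and 7.11 in leaves (-1.04 to 1.46).

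Of the 19 expansins 3 responded more in guard cells and 2 less. EXLA2 rose by 4.10 in guard cells and stood at 0.95 without a call in leaves (difference 3.15, adjusted p = 0.00401), and EXPA4 rose by 3.17 in guard cells and stood at 0.12 in leaves (3.05, adjusted p = 0.00767). EXPA16 had the opposite order. It read 13.98, 13.92 and 14.11 with ABA and 12.97, 13.05 and 13.02 with EtOH in guard cells, against 10.13, 10.36 and 10.25 with ABA and 4.59, 5.16 and 4.58 with EtOH in leaves. It rose by 0.99 in guard cells and by 5.47 in leaves (difference -4.48, SE 0.352, adjusted p = 3.63e-11), and the leaf arrays with ABA stayed below the guard cell arrays with EtOH. The highest value on any array was 14.50. Whether the guard cell rise of EXPA16 was held down near the top of the scale was not tested. TET2 rose by 2.37 in guard cells and stood at 0.09 in leaves (2.28, adjusted p = 1.51e-06), MTP11 rose by 3.00 in guard cells and 0.93 in leaves (2.07, adjusted p = 1.22e-05), and CRT1b by 2.45 in guard cells against -0.89 in leaves (3.34, adjusted p = 0.00127). SWEET4, a sugar transporter, read 5.45, 4.03 and 4.26 with ABA and 3.86, 3.85 and 3.88 with EtOH in guard cells, against 9.34, 8.02 and 9.47 with ABA and 5.01, 3.88 and 4.59 with EtOH in leaves. Its response was 0.72 in guard cells and 4.45 in leaves (difference -3.73, adjusted p = 0.000661). The guard cell call of SWEET4 (adjusted p = 0.042) was lost without ABA replicate 1 (0.251) and without EtOH replicate 1, 2 or 3 (0.0967, 0.0978 and 0.0949).

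Single regulators and enzymes, named by the rule or after their values were seen, were compared too. PUB19 rose by 2.63 in guard cells and 6.34 in leaves, where it read 11.33, 10.51 and 11.27 with ABA and 4.31, 4.49 and 5.27 with EtOH (difference -3.71, adjusted p = 1.57e-09). UGT76E12 read 4.57, 3.81 and 4.21 with ABA and 3.78, 3.54 and 3.99 with EtOH in guard cells (0.43, adjusted p = 0.133, and 0.0444 with the replicate block). In leaves it read 9.48, 9.49 and 9.36 with ABA and 4.57, 3.86 and 4.40 with EtOH (5.16). BGLU16 fell by 1.41 in guard cells and rose by 1.18 in leaves (difference -2.59, adjusted p = 4.91e-07). CIL, related to a regulator of chloroplast protein import, rose by 2.72 in guard cells and fell by 1.49 in leaves (4.21, adjusted p = 2.93e-06). FMA fell by 2.4 in guard cells and stood at -0.65 in leaves, where it was near the low end of the scale (-1.76, adjusted p = 0.00373). MYBC1 fell by 2.62 in guard cells and stood at -0.40 in leaves (-2.22, adjusted p = 0.00115). CHX20 fell by 1.73 in guard cells and by 1.64 in leaves (interval of the difference -0.89 to 0.69).

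Of 18 listed genes of touch, wounding and jasmonate 6 had a named probe set: CML23, CML37, CML38, AT1G76640, STZ and WRKY53. The listed jasmonate genes (JAZ1, JAZ10, LOX2, VSP1 and VSP2) were not among them. The measured genes had no call in guard cells and were called in leaves. Of 6 measured members, 0 were called in guard cells by limma (2 at an unadjusted p under 0.05, median -0.26, and STZ called without ABA replicate 2), while 5 rose and 1 fell in leaves (median 1.84; 6.93% of all probe sets rose there and 7.59% fell). CML38, a calmodulin-like protein, read 11.98, 11.43 and 11.48 with ABA and 12.05, 12.11 and 11.61 with EtOH in guard cells. In leaves it read 9.56, 10.47 and 11.01 with ABA and 7.61, 8.42 and 8.71 with EtOH (2.1), so that it lay lower in leaves than in guard cells under either treatment. The difference of the responses was -2.39 (adjusted p = 0.000576). CML23, of the same family, had a difference of -2.14 (adjusted p = 0.000756) and STZ, a zinc finger factor, of -1.18 (adjusted p = 0.00708). The differences of CML37 (-1.60, adjusted p = 0.186), AT1G76640 (-1.60, adjusted p = 0.0737, and 0.0405 with the replicate block) and WRKY53 (0.92, adjusted p = 0.433) were not called. CML37 itself was called in guard cells with the replicate block (0.78, adjusted p = 0.161 without it and 0.0252 with it), and so was STZ (-0.34, 0.051 and 0.0433).

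**Figure D4:**
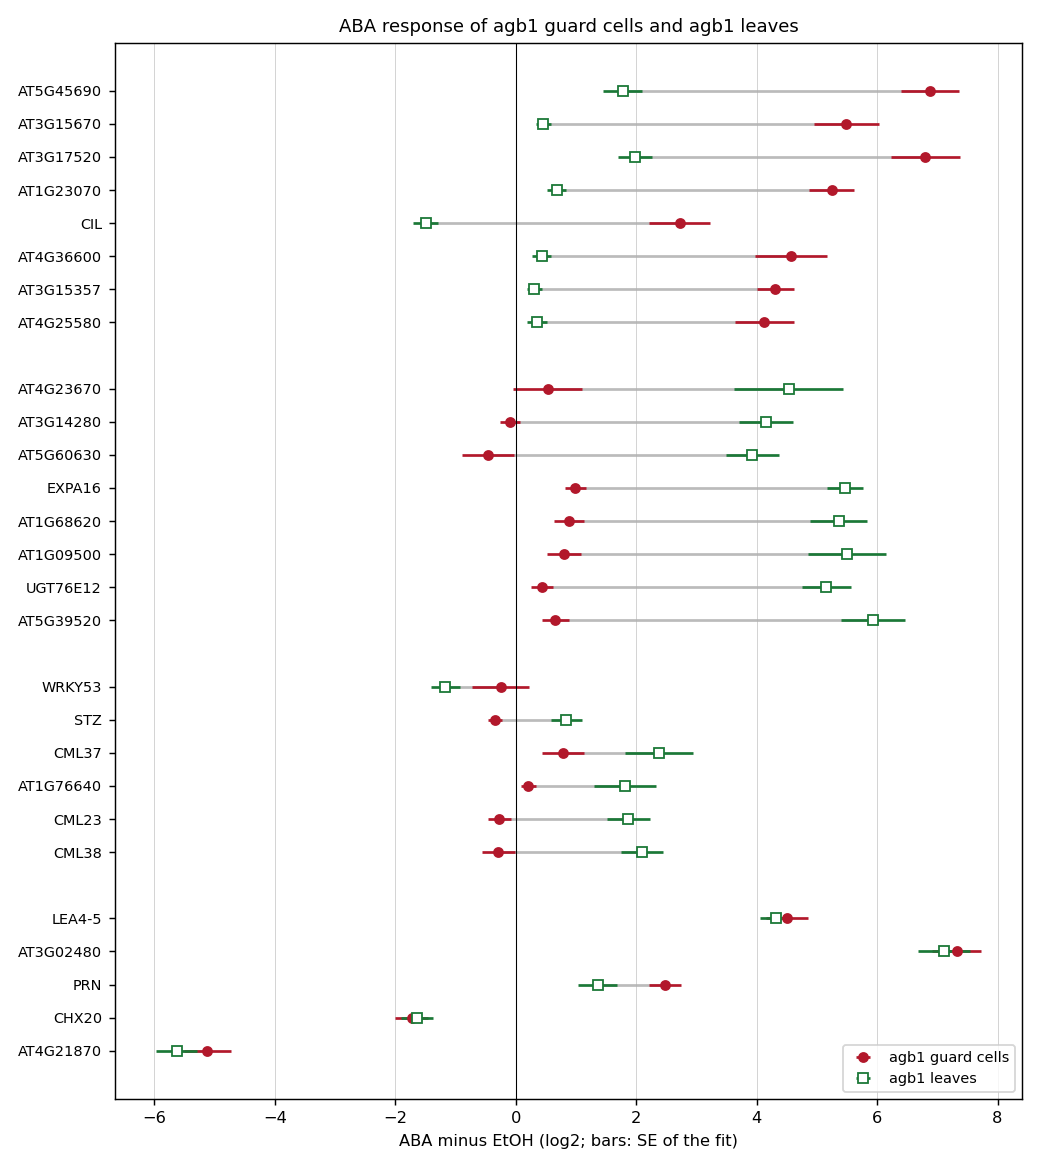
ABA response (log2, ABA minus EtOH, with SE bars) in agb1 guard cells and agb1 leaves of 16 genes with a called difference, the 6 touch list members, LEA4-5, AT3G02480, PRN, CHX20 and AT4G21870. AT5G45690 lies at 6.88 in guard cells and 1.78 in leaves, EXPA16 at 0.99 in guard cells and 5.47 in leaves, and AT3G02480 at 7.32 in guard cells and 7.11 in leaves.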

How the data were processed

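Expression was measured on 48 arrays, of which 24 carried guard cell RNA. Per the submitters' processing notes the authors made the deposited log2 values with RMA and affy. Their versions, and whether the 48 arrays went through RMA jointly, are not given in the sources used here. RMA compresses small differences near background and removes shifts common to an array. The arrays' number limits the precision, at a median SE of 0.180 for a response.

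Responses in guard cells were tested with limma 3.58.1 in R 4.3.3, by a cell-means model of the 8 guard cell groups (24 arrays). The difference between guard cells and leaves used all 16 groups (48 arrays), and leaf responses the leaf arrays. Two-sided p-values were adjusted (Benjamini-Hochberg) over the 22746 probe sets, and a probe set is called at an adjusted p under 0.05. An interval covers 95%. The fit of the agb1 guard cell response was tried on simulated arrays with independent errors. Differences of responses and the replicate block were not simulated.

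A single gene was annotated for 13513 probe sets, several genes for 503 and no gene for 8730. For the 152 genes (of 13350) with several probe sets, the brightest on average was used. Named genes are the 12 highest and 12 lowest responses without overlap between treatments, up to 6 called members of each list and the whole of a list of up to 6, up to 8 genes each way per tested difference (or the 5 of lowest p), and 10 genes called in agb1 or WT alone. Of 77 gene lists written, 17 had no measured member. The members and lists were chosen with earlier results of these data known.

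Among the fits, only the replicate block paired ABA and EtOH samples by replicate number. Deviations from the group means correlated within each number, at r = 0.644, 0.396 and 0.385 in agb1 and 0.6, 0.33 and 0.376 in gpa1. They were 0.318, 0.258 and 0.204 in agb1 gpa1, and 0.386, 0.354 and 0.439 in WT. Alternatives were a replicate block, the arrays compared alone, all 48 arrays, median centring, a filter on a mean of at least 6 (log2), a trended and robust spread, and leaving out each array. No promoter sequence was used here.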

Additional observations from a re-analysis of the deposited data

Results flagged for a closer look

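The ABA response differed by test between agb1 guard cells and agb1 leaves for 16 named genes (guard cells minus leaves, log2). It was higher in guard cells for AT5G45690 by 5.09, AT3G15670 by 5.03, AT3G17520 by 4.82, AT1G23070 by 4.56, CIL by 4.21, AT4G36600 by 4.14, AT3G15357 by 4.0 and AT4G25580 by 3.77. It was lower in guard cells for AT5G39520 (-5.27), UGT76E12 (-4.74), AT1G09500 (-4.70), AT1G68620 (-4.49), EXPA16 (-4.48), AT5G60630 (-4.39), AT3G14280 (-4.26) and AT4G23670 (-4.0). CIL was called in opposite directions, at 2.72 in guard cells and -1.49 in leaves. For AT5G39520 the guard cell response was 0.66 and the leaf response 5.93, and for AT1G68620 0.88 in guard cells and 5.36 in leaves. Of the 16 differences 15 were called in every setting that tested them, and the filter on dim probe sets tested 3 of the 16.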

How the results depend on the processing

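The number of probe sets responding in agb1 guard cells, 3571, became 5358 with the replicate block. It was 3136 to 3375 under the other alternatives that keep all 6 arrays and all probe sets, and 2701 to 3304 with 1 array left out. With the filter on dim probe sets, which tests fewer of them, it was 2947. Calls of at least 2-fold, 1755, ran from 1595 to 1922 with 1 array left out, and the calls among list members, 59, from 46 to 58. With the replicate block they became 1879 and 84. The count of list members leaves out lists added to the first set, such as tetraspanins, beta-glucosidases and nuclear genes of mitochondrial respiration. The count for agb1 minus WT, 0, became 1 with median centring and 0 to 1 with 1 array left out, where the 1 came without EtOH replicate 1 of agb1. The counts for agb1 minus gpa1 and agb1 minus agb1 gpa1 were 0 to 0 in the fits without 1 array. The guard cell minus leaf count, 1434, became 2329 with the replicate block, 956 on the 12 arrays compared, and 1083 to 1856 with 1 array left out. It was 959 without dim probe sets, again with fewer probe sets tested. Centring moved every response in agb1 guard cells by 0.05. Of 236 named genes 137 were called in agb1 guard cells, 92 of them in every setting that tested them, and 0 changed direction while called. The filter on dim probe sets tested 104 of the 137. The replicate block added calls for 18 named genes, removed that of AT3G32130 (adjusted p = 0.0608), and changed no other call among them. Only 13350 genes could be named, so lists cover a part of their genes. A probe set near the low end of the scale can hide a fall, and one near the high end a rise.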
